A study of Mus musculus with 2 samples.

Results

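Glucocorticoids, in mice mainly corticosterone, reach the nucleus of a cell through the glucocorticoid receptor, which is encoded by Nr3c1. The receptor waits in the cytoplasm in a complex with heat shock proteins, binds the hormone, enters the nucleus and raises or lowers the transcription of many genes. The enzyme encoded by Hsd11b1 regenerates active hormone from its inactive form inside cells and is well known in liver. Stellate cells, the vitamin A storing cells that lay down collagen in injured liver, endothelial cells and the resident macrophages called Kupffer cells all carry the receptor. The 10 genes described here were Nr3c1, Hsd11b1 and 8 genes known to respond to the receptor in many tissues, namely Fkbp5, Zbtb16, Tsc22d3, Klf9, Cebpd, Sgk1, Errfi1 and Ddit4. They were 10 of the 31054 genes in the count tables, and several of them were picked because earlier work on these data had shown them to differ between the libraries, so the differences below are a description and carry no test.

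The study isolated hepatic stellate cells from male mice of C57BL/6 background with the genotypes p16-LRTD and p16-Alb-LRTD, by enzymatic digestion of the liver and a Nycodenz gradient, and read 1 single-cell 3′ RNA library of each genotype. Every mouse had received CCl4, which injures hepatocytes, for 4 weeks together with tamoxifen and diphtheria toxin. Every mouse also carried p16-CreERT2 and the R26-CAG-LSL-RSR-tdTomato-2A-DTR allele, whose diphtheria toxin receptor is designed to need the action of both Cre and Dre recombinase. Only p16-Alb-LRTD mice carried Alb-DreERT2 as well, driven from the albumin gene, so that hepatocytes with high p16 could be removed there. The p16-LRTD mice served as controls that were given the same CCl4 and drugs. The paper also reports very mild fibrosis away from the central veins, only in genotypes with both Alb-DreERT2 and the R26 allele. It speculates that some toxin receptor was made despite the loxP stop. The part of such leakage in the differences below was not tested. The number of mice behind each library and the time of day at which livers were taken are not given in the sources used here. With 1 library per genotype every difference below is one between 2 libraries, without a replicate check, and genotype and library cannot be told apart.

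The p16-LRTD library held 11149 barcodes with 193746596 unique molecular identifiers (UMIs, 1 per captured RNA molecule), and the p16-Alb-LRTD library 8806 barcodes with 162219167 UMIs. After filtering, 9004 and 7416 cells were left. Stellate cells, defined by the sum of Lrat, Ecm1, Hgf and Reln, made up 7852 (87.2%) and 6621 (89.3%) of them. Endothelial cells, defined by Kdr, Stab2 and Ptprb, numbered 430 and 283, and Kupffer cells, defined by Clec4f, Cd5l, Vsig4 and Csf1r, 283 and 178. Each class carried markers that the definition had not used: the summed level of 6 such stellate markers was 26613 and 28856 CPM in stellate cells, of 6 endothelial markers 5559 and 4907 CPM in endothelial cells, and of 6 Kupffer markers 8259 and 10485 CPM in Kupffer cells. The libraries shared 18 barcodes among the filtered cells. CPM here means the UMIs of a gene per 1000000 UMIs summed over all cells of a class in a library; a ratio is always p16-Alb-LRTD over p16-LRTD on the log2 scale, and intervals are 95% intervals for counting error only. Because the libraries capture 3′ ends, levels were compared between libraries and classes but not between genes.

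The genomic DNA near the start of these genes can carry the element that the receptor binds as a dimer, a palindrome with arms AGAACA and TGTTCT around a spacer of any 3 bases. RefSeq windows running from 250 bases before to 50 bases after a start site (build GRCm38.p6) were at hand for 7 of the 10 genes, in 15 windows. The complete palindrome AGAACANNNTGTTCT, read on both strands, occurred in 3 of the 32851 windows of all genes (0.00913%), and 1 of these 3 belonged to Sgk1, which had 6 windows for its alternative starts. That window is printed because it is the only one of the 15 with the complete element, shown in capitals at chr10:21993701-21993715, with its 5′ base at position -189 from the start site. The single Fkbp5 window is printed beside it because Fkbp5 was among the members with the widest difference between the libraries, and it held neither the palindrome nor an arm.
Sgk1, chr10:21993640-21993939 (+): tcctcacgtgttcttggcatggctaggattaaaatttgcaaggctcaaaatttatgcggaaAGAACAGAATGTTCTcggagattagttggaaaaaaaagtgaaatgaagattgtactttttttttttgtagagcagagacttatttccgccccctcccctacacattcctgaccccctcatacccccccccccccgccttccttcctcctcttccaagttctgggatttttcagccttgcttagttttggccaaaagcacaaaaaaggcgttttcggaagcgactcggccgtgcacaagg
Fkbp5, chr17:28486100-28486399 (-): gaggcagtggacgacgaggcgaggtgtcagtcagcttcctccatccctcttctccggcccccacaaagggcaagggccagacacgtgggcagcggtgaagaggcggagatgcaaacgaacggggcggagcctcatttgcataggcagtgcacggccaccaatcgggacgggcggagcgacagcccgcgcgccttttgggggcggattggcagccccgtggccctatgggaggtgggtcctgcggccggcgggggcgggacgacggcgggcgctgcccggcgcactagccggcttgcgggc
The looser core GNACANNNTGTNC, which every complete palindrome also contains, was present in 156 windows of all genes (0.475%) and among the members in the same Sgk1 window only. The arm TGTTCT by itself, which the palindrome holds on both strands, was present in 19.0% of all windows and in windows of 2 members, Sgk1 (3 of 6 windows) and Tsc22d3 (1 of 3). A match is a string of letters, and windows of this size leave out the distal and intronic DNA of the genes.

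The receptor itself was at nearly the same level in the stellate cells of the 2 libraries. Nr3c1 (chromosome 18, 39410545 to 39519421, minus strand, GRCm38) stood at 212 CPM in p16-LRTD stellate cells and 213 CPM in p16-Alb-LRTD stellate cells, a log2 ratio of 0.01 (interval -0.01 to 0.03). Its sign changed in 3 of 10 other ways of processing these cells, where the ratio ran from -0.04 to 0.06. In endothelial cells Nr3c1 was at 219 and 246 CPM (log2 ratio 0.16, 0.04 to 0.28) and in Kupffer cells at 210.1 and 232 CPM (0.15, 0.03 to 0.27). The 6 values of the receptor thus lay between 210.1 and 246 CPM across cell classes and libraries. The endothelial value was -0.06 in endothelial cells without a fibrillar collagen UMI.

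Hsd11b1 (chromosome 1, 193221634 to 193264075, minus strand) was higher in stellate cells than in the other 2 classes compared. Hepatocytes, a known site of this enzyme, were not among those classes. It was at 392 and 447 CPM in stellate cells, a log2 ratio of 0.19 (0.17 to 0.20), and at 4.71 and 8.54 CPM in endothelial cells and 5.72 and 4.69 CPM in Kupffer cells. The size of the stellate ratio depended on the processing: it was 0.04 with cells of equal Col1a1 shares in both libraries, 0.07 with the mean of per-cell CPM and 0.36 in cells at or under the median of handling stress. These outside levels were 1.05% to 1.91% of the stellate level of the same library, while 6 stellate markers that the cell definition had not used stood at 1.11% to 1.79% of theirs. Values at the level of such markers are read as stellate background, whose source, free RNA or mixed cells, was not tested. No direction is drawn from the Kupffer ratio of -0.28 (-1.14 to 0.54).

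Among the 8 response genes the difference between the stellate cells of the libraries was widest for Zbtb16 and Fkbp5. Zbtb16 (chromosome 9, 48654297 to 48836222, minus strand) encodes the zinc finger transcription factor PLZF. It was at 59.5 CPM in p16-LRTD stellate cells and 647 CPM in p16-Alb-LRTD stellate cells, 10.9-fold higher (log2 ratio 3.44, 3.41 to 3.47), and only 1 of the 10179 genes with a mean of at least 5 CPM had a higher ratio. Fkbp5 (chromosome 17, 28399094 to 28517527, minus strand), a co-chaperone that lowers the hormone affinity of the receptor and so forms a feedback loop, was at 64.3 and 256 CPM, 3.99-fold higher (2.0, 1.96 to 2.03), and ranked sixth.

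A further 2 members were past 2-fold in stellate cells. Cebpd (chromosome 16, 15887286 to 15891031), a transcription factor of acute responses and of fat cell formation, was at 479 and 1086 CPM (log2 ratio 1.18, 1.17 to 1.19). Ddit4 (chromosome 10, 59949669 to 59951834), an inhibitor of the mTORC1 kinase complex, was sparse at 9.92 and 23.7 CPM (1.26, 1.16 to 1.35). The kinase gene Sgk1 (chromosome 10, 21882184 to 21999903), whose window with the palindrome is printed above, was at 191 and 361 CPM (0.92, 0.89 to 0.94). Klf9 (chromosome 19, 23141226 to 23168134), a transcriptional repressor, was at 342 and 558 CPM (0.71, 0.69 to 0.72).

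The smallest differences of response genes over all stellate cells were in Errfi1 and Tsc22d3. Errfi1 (chromosome 4, 150853919 to 150868892), which encodes an inhibitor of the EGF receptor, was at 496 and 649 CPM (0.39, 0.38 to 0.40). Tsc22d3 (chromosome X, 140539528 to 140600659) encodes GILZ, a leucine zipper protein that carries part of the anti-inflammatory action of glucocorticoids, and was at 20.8 and 26.4 CPM (0.34, 0.27 to 0.42). With cells of equal Col1a1 shares in both libraries the Tsc22d3 ratio was 0.82, so its place depended on the processing.

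In stellate cells 4 of the 10 members, Zbtb16, Fkbp5, Cebpd and Ddit4, were at least 2-fold higher in the p16-Alb-LRTD library, where 0.923% of all 10179 genes were, and 0 were at least 2-fold lower, where 0.943% of all genes were. The median log2 ratio of the members was 0.81 and that of all genes -0.05. These counts describe genes that were chosen with the contrast known. Among markers of other cells in the stellate class, 2 smooth muscle markers summed to 150.5 and 73.8 CPM, nearly all of it Myh11, and 4 portal fibroblast or mesothelial markers to 105 and 73.4 CPM, with Dpt at 60.4 and 29.7 CPM. Their part in the ratios was not tested.

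**Figure D1:**
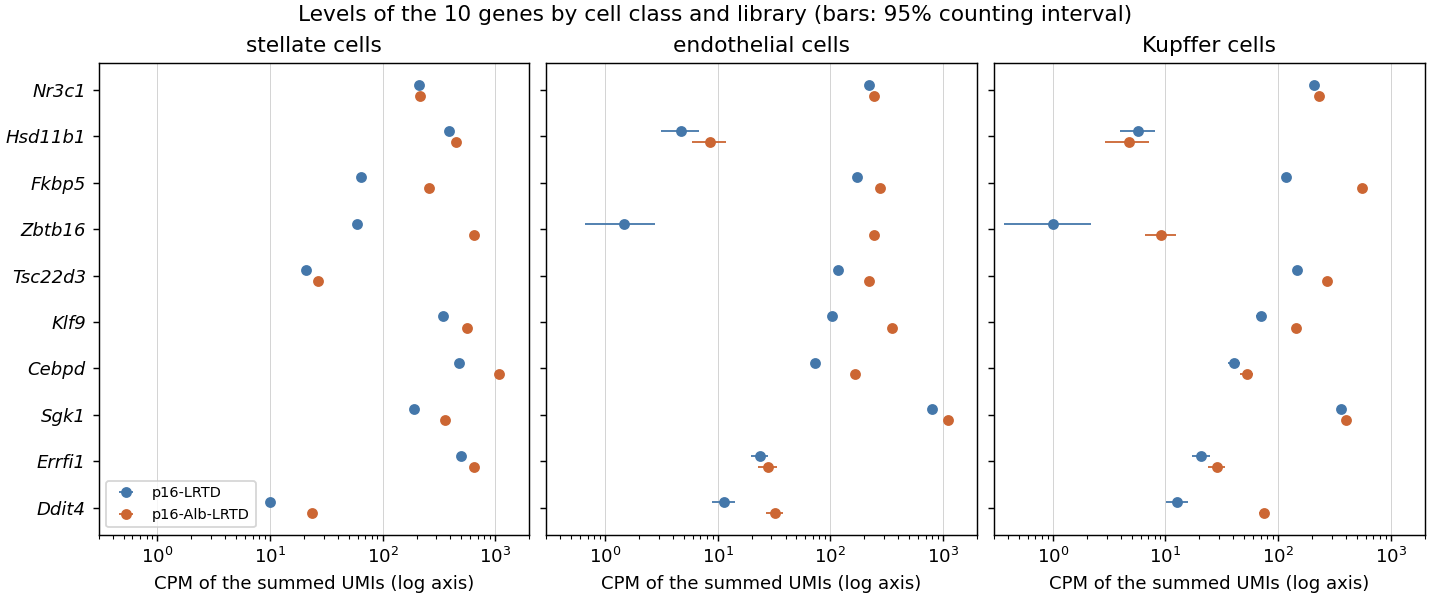
Level of each of the 10 genes in CPM of the summed UMIs (log axis) in stellate, endothelial and Kupffer cells, with p16-LRTD in blue and p16-Alb-LRTD in orange and bars for the 95% counting interval. Nr3c1 stays between 210.1 and 246 CPM in all panels, Zbtb16 lies at 59.5 and 647 CPM in stellate cells and at 1.46 and 244 CPM in endothelial cells, and Hsd11b1 is at 392 and 447 CPM in stellate cells and under 10 CPM in the other classes.

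In endothelial cells Zbtb16, Cebpd and Ddit4 were past 2-fold as in stellate cells, with Klf9 past it and Fkbp5 not; the difference between the classes was not tested. Zbtb16 was close to absent in p16-LRTD endothelial cells, with 9 UMIs over 430 cells (1.46 CPM), and had 973 UMIs over 283 p16-Alb-LRTD endothelial cells (244 CPM). The log2 ratio was 7.38 (6.45 to 8.52), and 4.65 with cells of more than 1 class kept. Zbtb16 in p16-Alb-LRTD endothelial cells was at 37.7% (35.4% to 40.2%) of its stellate level, against 1.28% for the stellate markers of the same cells. In the p16-LRTD library the share was 2.46% (1.12% to 4.66%), against 1.79% for the markers, so this value was at the level of the stellate background. Neither a rank nor a comparison with the stellate ratio is drawn from the 7.38.

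Klf9 was at 104 and 350.0 CPM in endothelial cells, a log2 ratio of 1.75 (1.61 to 1.89) that exceeded its stellate ratio of 0.71. Cebpd was at 73.4 and 165 CPM (1.17, 0.99 to 1.34) and Ddit4 at 11.4 and 32.1 CPM (1.5, 1.07 to 1.94), both near their stellate ratios. Tsc22d3 stood at 117 and 218 CPM (0.89, 0.75 to 1.04), a higher level in each library than the 20.8 and 26.4 CPM of stellate cells.

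Fkbp5 was already at 174 CPM in p16-LRTD endothelial cells and reached 278 CPM, so that its ratio of 0.68 (0.56 to 0.80) was below the stellate ratio of 2.0. Sgk1 was at 793 and 1106 CPM (0.48, 0.42 to 0.54), its highest level in any class. Errfi1 was low at 23.6 and 27.9 CPM (0.24), with an interval (-0.13 to 0.61) that included 0. With cells of more than 1 class kept its ratio was 1.14, which made it the fifth member past 2-fold.

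Zbtb16, Klf9, Cebpd and Ddit4 were thus the 4 of 10 members at least 2-fold higher in endothelial cells (2% of 9858 genes), and 0 were at least 2-fold lower (3.65% of all genes). The median log2 ratio was 0.88 for the members and -0.10 for all genes. Zbtb16 passed the minimum of 5 CPM only through the p16-Alb-LRTD library. Without it, a choice made after its values were seen, the count was 3 of 9 and the median 0.86. Hsd11b1, at 4.71 and 8.54 CPM (29 and 34 UMIs), also passed only through that library and lay near the stellate background. The 0.86 is the ratio of Hsd11b1 itself, and the 0.88 also rests on it, so no weight is put on either median. Handling-stress genes, described with the stellate cells below, were higher too, 13 of 14 in endothelial cells, 4 of them at least 2-fold, with a median of 0.85; their part in the result was not tested. Col1a1 was at 215 CPM in the endothelial cells of p16-LRTD and 5.02 CPM in those of p16-Alb-LRTD, and after thinning 39 of 418 p16-LRTD endothelial cells had a Col1a1 UMI, 4 had at least 3 and 2 had at least 10, against 7, 0 and 0 of 283 p16-Alb-LRTD cells. Several marker lists of other cells were also lower there: 4 portal fibroblast or mesothelial markers summed to 12.8 and 1.0 CPM, 6 lymphocyte markers to 9.42 and 0 CPM, with all 6 at 0 in p16-Alb-LRTD, and 6 Kupffer markers to 67.1 and 50.5 CPM, among them Marco at 23.4 and 3.01 CPM, while 6 hepatocyte markers summed to 84.7 and 90.4 CPM. Their part in the endothelial ratios was not tested. Among the 123 and 161 endothelial cells without any UMI of Col1a1, Col1a2 and Col3a1, the same count was 4 and the median 0.80, and Zbtb16 had 0 UMIs against 453 UMIs (213 CPM), at least 102-fold higher when 3 UMIs in the p16-LRTD cells are taken as the limit.

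Kupffer cells had the widest Ddit4 and Fkbp5 ratios. Fkbp5 was at 118 CPM in the Kupffer cells of p16-LRTD and at 556 CPM in the others (log2 ratio 2.24, 2.12 to 2.36). Ddit4 was at 12.8 and 75.3 CPM (2.56, 2.20 to 2.94), twelfth highest of the 9514 genes compared. Klf9 was at 70.0 and 145 CPM (1.05, 0.87 to 1.23), and 0.58 when cells that passed the markers of more than 1 class were kept.

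Tsc22d3 was at 147 and 272 CPM in Kupffer cells, with a ratio of 0.89 (0.77 to 1.02) like that of endothelial cells. Sgk1 was nearly level at 364 and 403 CPM (0.15, 0.06 to 0.24). Cebpd at 40.5 and 52.8 CPM (0.38) had a ratio of -0.01 among cells with 10000 to 30000 UMIs. Errfi1 at 20.9 and 28.4 CPM (0.44) had one of -0.41 when cells of more than 1 class were kept, so neither direction held under every setting.

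Zbtb16 had 6 and 41 UMIs in Kupffer cells, 1.01 and 9.17 CPM. These were 1.69% (0.62% to 3.69%) and 1.42% (1.02% to 1.92%) of the stellate levels, against 1.36% and 1.11% for the stellate markers. Both values are thus at the level of the stellate background, and the ratio of 3.18 (1.94 to 4.71) lay near the 3.44 of stellate cells. By the 5 CPM rule 4 of 10 members, Zbtb16, Fkbp5, Klf9 and Ddit4, were at least 2-fold higher in Kupffer cells, where 1.7% of all genes were, and 0 were at least 2-fold lower (1.87% of all genes). Zbtb16 passed that minimum only through the p16-Alb-LRTD library, and without it, a choice made after its values were seen, the count was 3 of 9 and the median ratio 0.44. With the mean of per-cell CPM the count was 2, since Zbtb16 was then under the minimum and Klf9 just under 2-fold. The median ratio was 0.67 for the 10 members and -0.06 for all genes, and among the handling-stress genes 13 of 14 were higher, 3 at least 2-fold, and 1 was at least 2-fold lower, with a median of 0.47; their part in the result was not tested. The 6 endothelial markers summed to 535 and 746 CPM in Kupffer cells, with Pecam1 at 62.7 and 125 CPM, and the Kupffer marker Marco was at 508 and 1461 CPM. The part of these differences in the Kupffer ratios was not tested either.

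**Figure D2:**
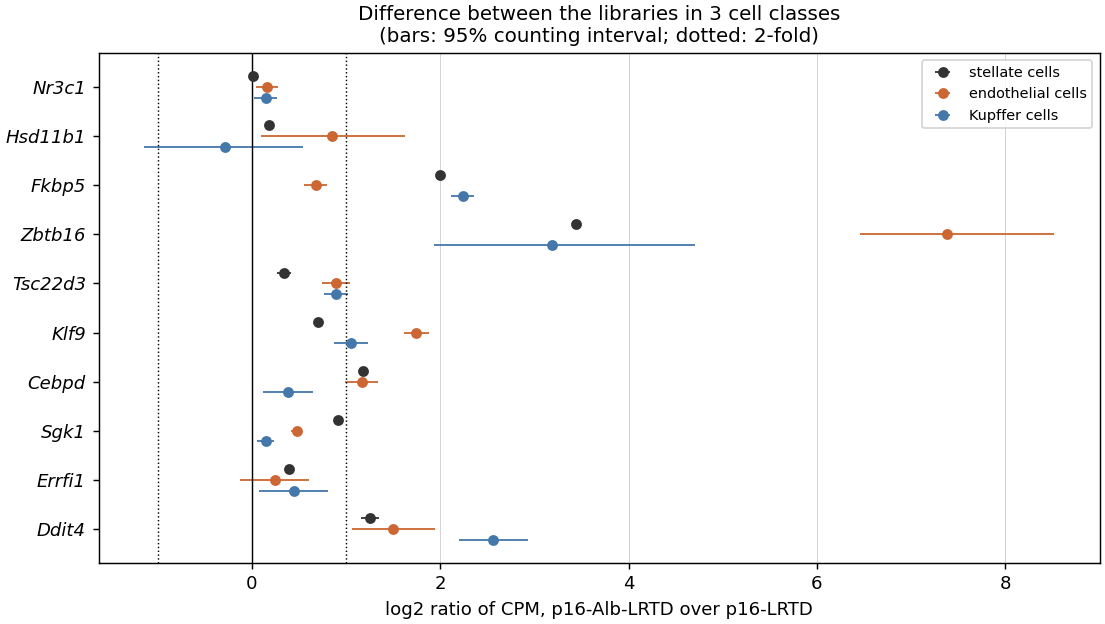
Log2 ratio of CPM, p16-Alb-LRTD over p16-LRTD, for the 10 genes in stellate (black), endothelial (orange) and Kupffer cells (blue), with 95% counting intervals and dotted lines at 2-fold. Nr3c1 lies at 0.01 to 0.16 in all classes, Fkbp5 at 2.0 and 2.24 in stellate and Kupffer cells but 0.68 in endothelial cells, and Zbtb16 at 7.38 in endothelial cells.

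How the difference was spread over stellate cells was measured after each cell was thinned to 5000 UMIs, which kept 7836 and 6614 stellate cells. Zbtb16 was detected in 22.2% of p16-LRTD stellate cells and in 91.2% of those from p16-Alb-LRTD (49.2% and 98.8% without thinning). At least 3 UMIs were present in 1.43% and 56.3% of cells. For reference, the share of thinned Kupffer cells with a Zbtb16 UMI was 0.719% and 5.65%, and that of endothelial cells 0.478% and 54.4%. Endothelial cells with a Zbtb16 UMI were thus common in the p16-Alb-LRTD library, while the Kupffer level of Zbtb16 was that of the stellate background.

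Fkbp5 was detected in 25.8% and 64.0% of thinned stellate cells, and Klf9 in 72.0% and 88.5%. Cebpd was detected in 79.6% and 96.8%, with at least 10 UMIs in 1.44% and 12.9%. Nr3c1 was detected in 63.4% of cells of each library. Tsc22d3 and Ddit4 were too sparse for a reading per cell, with a UMI in 8.74% and 11% and in 4.31% and 10.2% of cells. In Kupffer cells the share with an Fkbp5 UMI was 37.1% in p16-LRTD and 80.2% in p16-Alb-LRTD.

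The sum of Zbtb16, Fkbp5, Tsc22d3, Sgk1 and Klf9 had a median of 3 UMIs per thinned stellate cell in p16-LRTD (10th to 90th percentile 1 to 6) and 9 UMIs in p16-Alb-LRTD (4 to 14). Of p16-Alb-LRTD cells, 72.7% lay above the 90th percentile of p16-LRTD cells, and 0.212% had none of these UMIs, against 7.90% of p16-LRTD cells. The distributions overlapped, and each had 1 peak, with the p16-Alb-LRTD peak moved to higher counts.

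**Figure D3:**
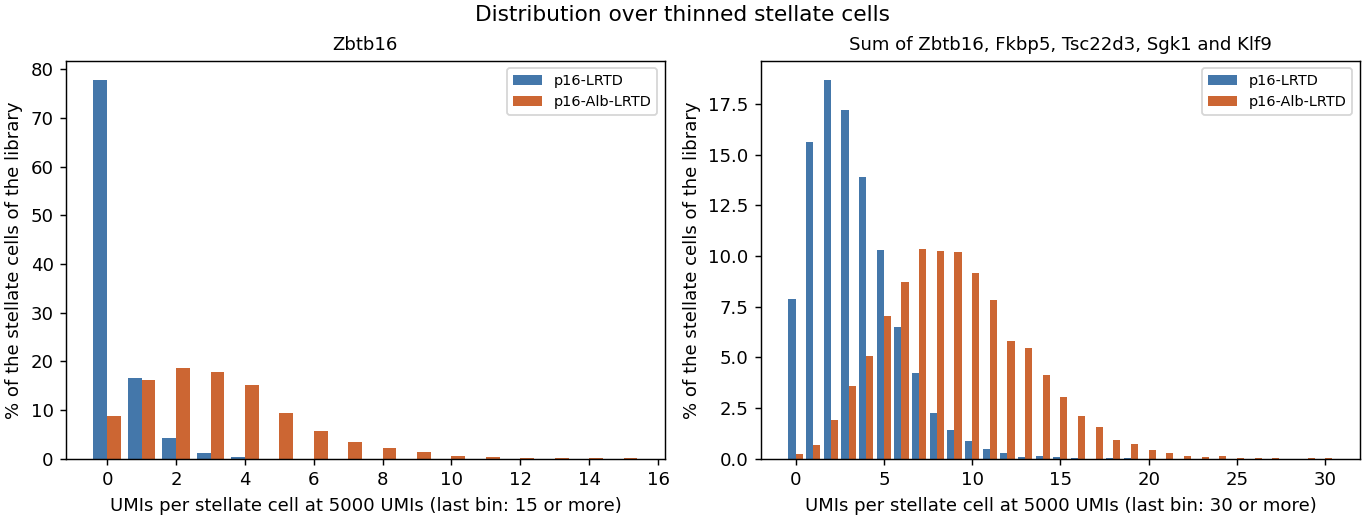
Percent of stellate cells of each library (vertical axis) by UMIs per cell at 5000 UMIs, for Zbtb16 and for the sum of Zbtb16, Fkbp5, Tsc22d3, Sgk1 and Klf9, with p16-LRTD in blue and p16-Alb-LRTD in orange. The sum has its median at 3 UMIs in p16-LRTD and 9 UMIs in p16-Alb-LRTD.

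Collagen was lower in the p16-Alb-LRTD stellate cells, with Col1a1 at 1950.2 and 504 CPM, and 24.0% of p16-LRTD but 5.73% of p16-Alb-LRTD cells had at least 10 Col1a1 UMIs after thinning. The members were therefore compared again among cells with 0, 1 to 3, 4 to 9 and 10 or more Col1a1 UMIs. Zbtb16 kept a log2 ratio of 3.31 to 3.40 in these groups of cells and Fkbp5 one of 1.79 to 2.06. Cebpd ranged from 1.08 to 1.29, Klf9 from 0.76 to 0.93 and Sgk1 from 0.66 to 0.92. Nr3c1 lay between -0.07 and -0.02.

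Ddit4 and Tsc22d3 had the widest ranges of ratio among the 10 genes in this split. Ddit4 had 1.85, 1.56, 1.22 and 1.12 from the group without Col1a1 to that with the most, while its level increased from 6.16 to 14.6 CPM in p16-LRTD and from 22.2 to 31.7 CPM in the other library.

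Tsc22d3 increased with Col1a1 within each library, from 12.5 CPM in cells without Col1a1 to 35.4 CPM in cells with 10 or more UMIs in p16-LRTD, and from 16.9 to 67.4 CPM in p16-Alb-LRTD. Its ratio within the groups was 0.44, 0.80, 1.04 and 0.93, each above the 0.34 found over all stellate cells, where fewer p16-Alb-LRTD cells were rich in Col1a1. With the groups weighted alike in both libraries the Tsc22d3 ratio was 0.82. Errfi1 also increased with Col1a1, from 386 to 635 CPM in p16-LRTD and from 585 to 804 CPM in p16-Alb-LRTD. Hsd11b1 decreased with it, from 507 to 262 CPM and from 486 to 338 CPM, and its ratio ran from -0.06 in cells without Col1a1 to 0.37 in those with 10 or more UMIs.

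Genes that respond to tissue digestion and handling, such as Fos, Egr1 and Hspa1a, moved with the members. In p16-Alb-LRTD stellate cells 14 of 14 such genes were higher, the least of them by a log2 ratio of 0.03. At least 2-fold higher were 2 of them, where 0.923% of all genes were. Their median log2 ratio was 0.69 beside -0.05 for all genes. Their summed count had a median of 33 UMIs in p16-LRTD and 53 UMIs in p16-Alb-LRTD thinned cells, and 16.9% and 51.9% of cells fell in the highest tertile of the sum. Within tertiles of this sum the Zbtb16 ratio was 3.82, 3.29 and 3.1 from the lowest to the highest, and Fkbp5 remained at 1.94 to 2.07. Cebpd ran from 1.2 down to 0.83 and Tsc22d3 from 0.57 down to 0.19. Sgk1 lay between 0.61 and 0.76 and Klf9 between 0.48 and 0.64, each below its ratio over all cells. The part of handling in the levels of Cebpd, Sgk1 and Klf9 beyond this split was not tested.

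**Figure D4:**
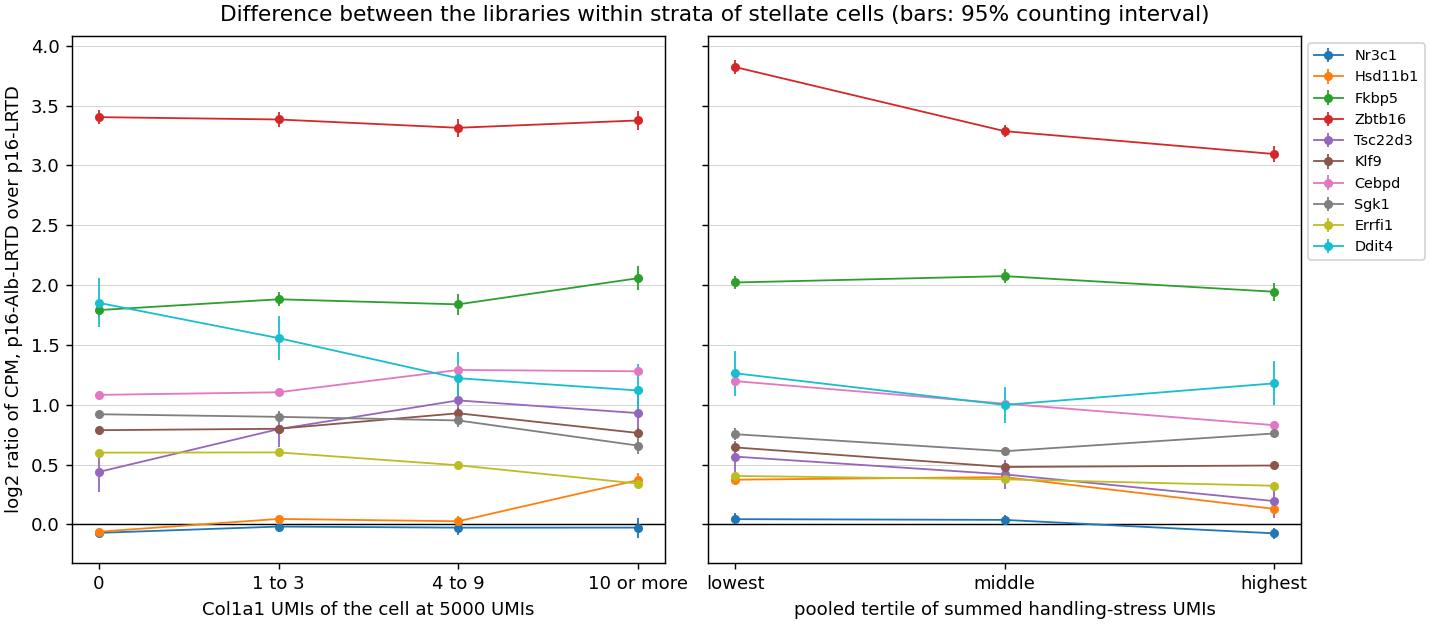
Log2 ratio of CPM, p16-Alb-LRTD over p16-LRTD, of the 10 genes within stellate cells grouped by Col1a1 UMIs (left) and by tertiles of the summed handling-stress UMIs (right), with 95% counting intervals. Zbtb16 stays between 3.1 and 3.82 and Fkbp5 between 1.79 and 2.07, while across the Col1a1 groups Tsc22d3 runs from 0.44 to 1.04 and Ddit4 from 1.12 to 1.85.

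From cell to cell within a library the members hardly moved together. Over 45 pairs of members the median Spearman correlation in thinned stellate cells was 0.008 in p16-LRTD (range -0.060 to 0.105) and 0.007 in p16-Alb-LRTD (range -0.112 to 0.112). In each library 1 of the 45 pairs was above 0.1, Klf9 with Cebpd in p16-LRTD and Fkbp5 with Zbtb16 in p16-Alb-LRTD. The pair of Fkbp5 and Zbtb16 had 0.036 in p16-LRTD, and Zbtb16 with Cebpd had -0.112 in p16-Alb-LRTD. Cells of a library share their digestion and depth after thinning, and counts of a few UMIs per cell limit any correlation, so these values are a description.

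With Col1a1 the correlations were 0.206 and 0.117 for Errfi1, 0.133 and 0.142 for Tsc22d3 and 0.110 and 0.099 for Klf9 in p16-LRTD and p16-Alb-LRTD. Hsd11b1 had -0.207 and -0.099. Fkbp5 had -0.09 in each library, and Zbtb16 had -0.03 and -0.07. With the summed handling-stress count Cebpd had 0.29 and 0.23, Klf9 0.24 and 0.21 and Sgk1 0.15 and 0.18, whereas Fkbp5 had -0.01 and -0.05. In Kupffer cells the pair of Fkbp5 and Tsc22d3 had the highest correlation of any 2 members, 0.27 in p16-LRTD and 0.20 in p16-Alb-LRTD. In the p16-LRTD Kupffer cells both genes had a correlation of 0.31 with the summed handling-stress count, above that with each other, and in those of p16-Alb-LRTD Fkbp5 had 0.11 and Tsc22d3 0.098, below it.

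**Figure D5:**
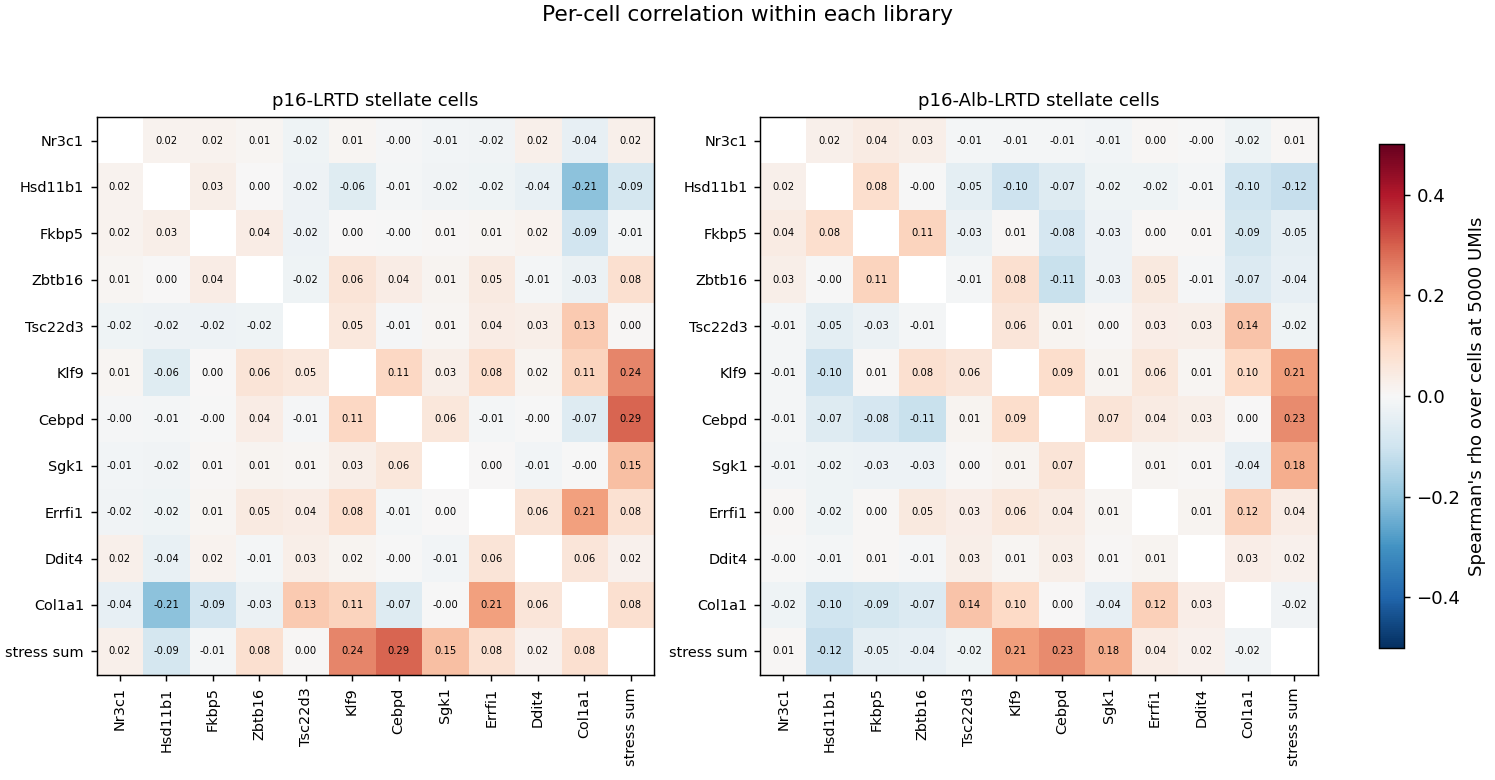
Spearman correlation over stellate cells thinned to 5000 UMIs, in p16-LRTD (left) and p16-Alb-LRTD (right), among the 10 genes, Col1a1 and the summed handling-stress count (stress sum). Most pairs of members lie near 0, and entries away from 0 include Cebpd (0.29 and 0.23), Klf9 (0.24 and 0.21) and Sgk1 (0.15 and 0.18) with the stress sum, and Errfi1 (0.21 and 0.12), Tsc22d3 (0.13 and 0.14) and Hsd11b1 (-0.21 and -0.10) with Col1a1.

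Across 6072 genes detected in at least 10% of thinned stellate cells of both libraries, the genes most like the sum of Zbtb16, Fkbp5, Tsc22d3, Sgk1 and Klf9, ranked by the lower of their correlations in the 2 libraries, included Fosb, Abi1, Egr1, Zfpm2, Tshz2, Atrnl1 and Zbtb20. The lower correlation was 0.22 for Fosb and 0.10 for Zbtb20, and the median over all these genes was -0.002 in each library. Fosb and Egr1 are among the handling-stress genes. Of the members left out of the sum, Errfi1 had 0.08 and 0.07, Nr3c1 0.01 and 0.02, Hsd11b1 -0.04 and -0.05, and Cebpd 0.11 and -0.01, which differ in sign.

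Of 12 measured partners of the receptor (chaperones, coregulators and related genes), 10 had ratios above 0 in stellate cells and 2 had ratios below it. Their median ratio was 0.15 beside -0.05 for all genes, and 0 of them were at least 2-fold higher or lower, where 0.923% and 0.943% of all genes were. In endothelial cells 10 of 12 partners had ratios above 0 and 2 below it, with a median of 0.14 beside -0.10 for all genes. There 0 were at least 2-fold higher or lower, where 2% and 3.65% of all genes were. In Kupffer cells 6 were higher and 6 lower, with a median of 0.02, and 1, the coactivator gene Ncoa1 (153 and 318 CPM, 1.06), was at least 2-fold higher (1.7% of all genes). In stellate cells the chaperones stood highest, with Hsp90aa1 at 211 and 354 CPM (0.75) and Fkbp4, the co-chaperone that helps the receptor travel to the nucleus, at 55.5 and 89.5 CPM (0.69). The mineralocorticoid receptor gene Nr3c2, which binds the same hormone, was at 100.3 and 100.2 CPM, and Hsd11b2, which inactivates the hormone, was at 0.11 and 0.13 CPM.

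Of 24 other known targets of the receptor, 22 passed the minimum of 5 CPM in stellate cells, 18 were higher, 6 at least 2-fold higher and 0 at least 2-fold lower (0.923% and 0.943% of all genes), with a median ratio of 0.55 beside -0.05 for all genes. Those 6 were Angptl4 (23.0 and 75.2 CPM, 1.71) and Pdk4 (12.9 and 35.0 CPM, 1.44), which serve fat use, the clock gene Per1 (20.8 and 49.3 CPM, 1.25), the transcription factor gene Foxo3 (52.1 and 115 CPM, 1.14), the receptor tyrosine kinase gene Mertk (107 and 234 CPM, 1.12) and the cell cycle inhibitor gene Cdkn1c (16.4 and 33.6 CPM, 1.04). Dusp1, a phosphatase that ends MAP kinase signals, was at 765 and 1087 CPM (0.51), the metallothionein gene Mt1 at 589.6 and 905 CPM (0.62), and Anxa1, an anti-inflammatory protein gene, at 366 and 322 CPM (-0.19). Like the members, this list was chosen with earlier results of these data known. The handling-stress genes had a median ratio of 0.69 in the same stellate cells, and the part of handling in the ratios of these targets was not tested. In endothelial cells 2 of 20 measured targets were at least 2-fold higher and 1 was at least 2-fold lower (2% and 3.65% of all genes), with a median ratio of 0.56. In Kupffer cells 2 of 20 were at least 2-fold higher and 2 at least 2-fold lower (1.7% and 1.87% of all genes), 7 had ratios below 0 down to -1.91 for Anxa1, and the median was 0.16.

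Genes that glucocorticoids are known to repress were higher in the stellate and Kupffer cells of p16-Alb-LRTD wherever they passed the minimum level. In stellate cells these were 6 of 6, 1 of them at least 2-fold (0.923% of all genes), the chemokine gene Cxcl10 (68.1 and 192 CPM, 1.49), and the median ratio was 0.79 beside -0.05 for all genes. In Kupffer cells 10 of 10 were higher and 8 at least 2-fold (1.7% of all genes), with a median ratio of 2.01 beside -0.06 for all genes, among them Tnf (9.25 and 124 CPM, 3.74), Ccl7 (19.9 and 165 CPM, 3.06) and Ccl2 (76.4 and 427 CPM, 2.48). Kupffer cells thus had higher Fkbp5 and Tsc22d3 and higher inflammatory genes in the same library. In endothelial cells 4 of 6 were higher and 2 lower, with Cxcl10 at least 2-fold higher (109 and 321 CPM, 1.56) and Ccl2 at least 2-fold lower (67.8 and 14.8 CPM, -2.19), where 2% and 3.65% of all genes were.

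Some receptor targets are also genes of the daily clock, and some clock genes had ratios of opposite sign in different classes. In stellate cells 8 of 11 measured clock genes were higher and 2 at least 2-fold (0.923% of all genes), Per1 as above and Per2 at 7.39 and 19.5 CPM (1.40). Arntl was at 63.4 and 54.5 CPM (-0.22), Nr1d1 at 15 and 18.6 CPM (0.31) and Npas2 at 124 and 100.0 CPM (-0.31). In endothelial cells 9 of 12 were higher, 2 of them at least 2-fold, and 3 were at least 2-fold lower (2% and 3.65% of all genes), namely Ciart (28.4 and 4.02 CPM, -2.82), Dbp (44.2 and 12.6 CPM, -1.82) and Nr1d1 (111 and 46.4 CPM, -1.26). In Kupffer cells 6 of 9 were higher, 1 of them at least 2-fold (1.7% of all genes), and 3 lower, 0 of them at least 2-fold (1.87% of all genes). These differences between classes were not tested. The part of time of day in the levels of the members was not tested.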

How the data were processed

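The authors counted 10x 3′ v3.1 libraries with Cell Ranger 7.0.1 on mm10 (submitters' processing notes) and deposited the UMI counts, not normalized; whether introns were counted is not given in the sources used here. The 10 members and all gene lists were chosen with earlier results of these data known. Cells with at most 5% mitochondrial UMIs, 2000 to 7000 genes and at most 50000 UMIs were kept. Classes needed marker sums of at least 15 (stellate) or 8 (endothelial, Kupffer) UMIs per 10000. No doublet caller was run: the upper limits applied, and cells past more than 1 class (245 and 221) were left out.

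Counts were summed per class and library. Genes with a mean of at least 5 CPM were compared, and ratios of at least 2-fold were counted, without a test. Intervals (exact Poisson, exact conditional) cover counting error only. Cells were thinned to 5000 UMIs without replacement for shares, strata and correlations. The ratio calculation was tested on simulated data. Named genes were the members, list genes past 2-fold in stellate cells (at most 6 a list), at most 3 others by role, and the 8 genes most like the sum of 5 members, of which 1 is not reported here; endothelial and Kupffer values of list genes, and the clock genes Arntl, Nr1d1 and Npas2, were named after their values were seen. Positions are from GENCODE vM21, in which noncoding genes overlap Hsd11b1, Fkbp5 and Klf9 on their strand. Tools were Python 3.11.15, NumPy 2.4.6, SciPy 1.17.1, pandas 2.3.3, R 4.3.3 and edgeR 4.0.16 (TMM factors only). Alternatives varied the cell filter, class rules, depth, scaling, averaging, CPM minimum, proliferating cells, handling stress and Col1a1 shares; endothelial cells without collagen UMIs, and endothelial and Kupffer counts without Zbtb16, were added after the data were seen.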

Additional observations from a re-analysis of the deposited data

Results flagged for a closer look

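Hsd11b1 had ratios of opposite sign, 0.19 in stellate cells and -0.28 (interval -1.14 to 0.54) in Kupffer cells. No direction is drawn from the Kupffer value. Its interval includes 0, and it rests on 34 and 21 UMIs at the level of the stellate background. The difference between the classes was not tested.

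Angptl4, a receptor target outside the 10 genes, was also opposite between classes, at 23.0 and 75.2 CPM in stellate cells (1.71) and 16.5 and 5.37 CPM in Kupffer cells (-1.62, 98 and 24 UMIs). The difference was not tested.

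The 194 and 113 filtered cells that met the marker sums of no class entered no comparison above. Among them Zbtb16 was at 15.9 and 123 CPM (log2 ratio 2.96, 2.58 to 3.35) and Fkbp5 at 55.1 and 142 CPM (1.37, 1.13 to 1.61), the 2 members past 2-fold there. Nr3c1 was at 94.0 and 148 CPM in these cells (0.66, 0.46 to 0.86), beside ratios of 0.01 to 0.16 in the 3 classes. Klf9 (0.06), Cebpd (0.07) and Errfi1 (-0.01) were near level in these cells, and Sgk1 was at 183 and 150.1 CPM (-0.28). In the same cells the hepatocyte gene Alb was at 510.5 and 189 CPM (-1.44), Col1a1 at 3496 and 2408 CPM (-0.54) and the leukocyte gene Ptprc at 159 and 276 CPM (0.80), and the part of such other cells in these ratios was not tested.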

How the results depend on the processing

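Of 76 alternative values of the counts, medians and correlations, 68 were labelled the same as the main value. For counts this meant within 1.5 times, and for medians between the medians of the members' lower and upper interval bounds. For correlations it meant within 0.022 (p16-LRTD) or 0.024 (p16-Alb-LRTD). The band for medians was wide in Kupffer cells, where 0.49 with the mean of per-cell CPM counted as the same. A reversal was defined for medians only, and 0 reversed. The stellate median of 0.81 became 0.65 in cells at or under the median of handling stress, 0.86 with TMM and 0.86 with median-of-ratios scaling, 0.84 with the mean of per-cell CPM, 0.71 with a minimum of 20 CPM and 0.84 with pooled Col1a1 shares. The Kupffer median of 0.67 became 0.44 when cells of more than 1 class were kept, and the Kupffer count of 4 became 2 with the mean of per-cell CPM, where Zbtb16 fell under the minimum and Klf9 was at 0.9998, just under 2-fold. Counts in stellate and endothelial cells were within 1.5 times of 4 throughout. Sign changes among single members were seen for Nr3c1 in each class and for Cebpd and Errfi1 in Kupffer cells, 7 of 250 values in all. No paired analysis was possible because there was a lone library per genotype, and for the same reason no library could be left out. Stellate background limits Hsd11b1 in endothelial and Kupffer cells, and Zbtb16 in Kupffer cells and p16-LRTD endothelial cells. Depth limits Ddit4 and Tsc22d3 per stellate cell.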
